A study of Arabidopsis thaliana with 12 samples.

Results

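The difference between the ecotypes Or-1 and Rak-2 in the root response to NH4+ was measured for every gene with enough counts, from all 12 of the 12 libraries of the series. The difference was taken as the NH4+ over NO3- response of Or-1 minus the NH4+ over NO3- response of Rak-2, on the log2 scale. A positive difference means that the response was more positive in Or-1, by a larger rise, a smaller fall or both. Of 26568 listed genes, 19327 had enough counts to be tested. The 4 groups were Or-1 on NH4+, Or-1 on NO3-, Rak-2 on NH4+ and Rak-2 on NO3-, with 3 libraries each. Or-1 and Rak-2 are natural ecotypes of Arabidopsis thaliana, and the study describes Or-1 as tolerant of NH4+ and Rak-2 as sensitive to it. Each kind is represented by a single ecotype, so tolerance cannot be told apart from any other difference between them. All plants were first grown for 5 days on NO3-, and the study's methods add a period without nitrogen that the sample descriptions do not mention. Roots were then taken after 1 day on 1 mM (NH4)2SO4 or 1 mM Ca(NO3)2. Nothing states how many plants were pooled in a library.

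The deposited counts summed to between 16005610 and 22388738 per library, a similar depth in all groups. The spread between the 3 libraries of a group, as edgeR's common biological coefficient of variation, was 0.223 in Or-1 on NH4+, 0.241 in Or-1 on NO3-, 0.158 in Rak-2 on NH4+ and 0.343 in Rak-2 on NO3-. The last group is the one where libraries stood furthest apart, and it enters every difference reported here. All replicates differed from each other beyond counting noise. Levels are given as CPM, the rate of counts in a library after TMM scaling of its total, and fewer cells of a type and less RNA per cell cannot be told apart in these whole roots. Endodermis markers, which define the root layer that carries the Casparian strip, summed to between 164.3 and 300.4 CPM in every library. Shoot markers were not absent, and their sums are given further on.

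Roots take up both nitrogen sources by different routes. NO3- is reduced to NO2- by nitrate reductase and to NH4+ by nitrite reductase, and it also acts as a signal that switches on its own uptake and reduction genes. NH4+ is assimilated directly by glutamine synthetase, and many plants are harmed when it is the main source of nitrogen. Arabidopsis roots can also turn tryptophan into defence compounds, among them camalexin and the indolic glucosinolates, by way of indole-3-acetaldoxime.

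The response to the nitrogen source differed between the ecotypes for 237 genes, at a Benjamini-Hochberg adjusted p under 0.05 in edgeR's quasi-likelihood test and an absolute log2 difference over 1. These are 1.23% of the genes tested. The difference was positive for 208 of them (1.08%) and negative for 29 (0.150%). Among the 208, the median response was 1.70 in Or-1 (quartiles 1.13 and 2.79) and -0.27 in Rak-2 (quartiles -0.93 and 0.35). By the tests of the single responses, 164 of the 208 rose on NH4+ in Or-1, while in Rak-2 18 rose, 36 fell and 154 were not called. Among the 29, the median response was -1.48 in Or-1 (quartiles -2.62 and -0.66) and 0.34 in Rak-2 (quartiles -0.35 and 0.73). Over all genes tested the median Or-1 response was -0.04, the median Rak-2 response -0.01 and the median difference was -0.01. Taken alone, the Or-1 response was called above 0 for 5.26% of the genes tested and below 0 for 3.60%, and the Rak-2 response for 2.69% and 3.40%. Both responses are part of the difference and share its libraries, so they are given as a description. In all, 9 genes rose in Or-1 and fell in Rak-2, each by its own test, and no gene fell in Or-1 and rose in Rak-2.

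**Figure D1:**
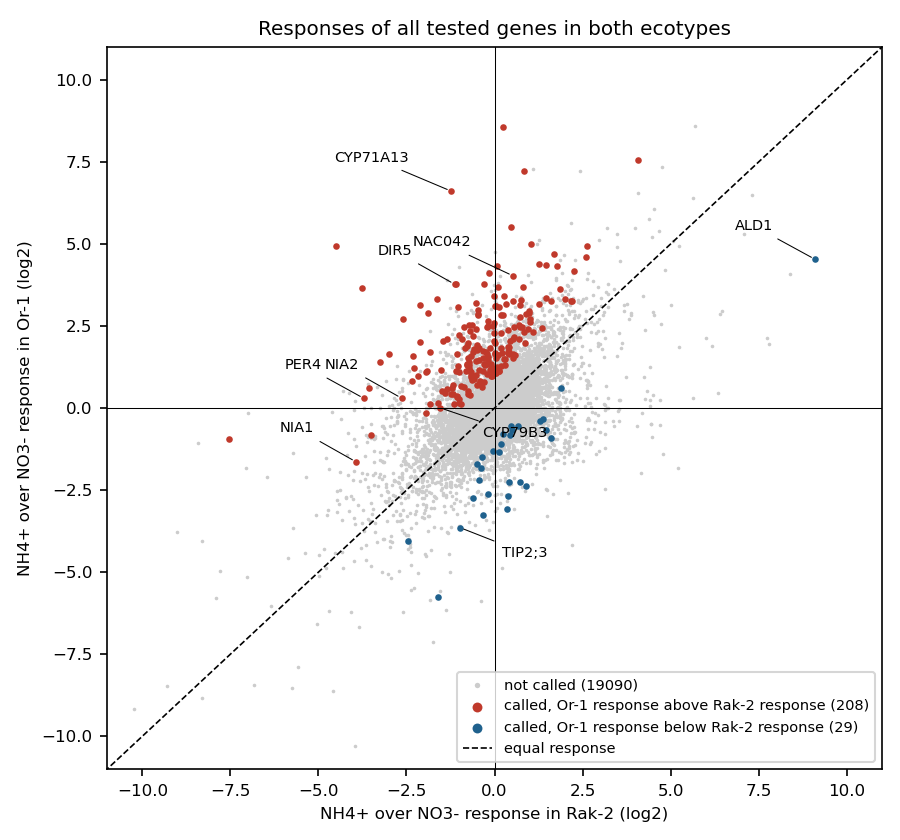
The NH4+ over NO3- response of each tested gene in Or-1 (vertical axis, log2) against that in Rak-2 (horizontal axis, log2), with 1 point per gene and a dashed line where both are equal. The 208 genes called above 0 lie above the line, mostly with positive values in Or-1, and the 29 called below 0 lie under it.

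The ecotypes were also compared on each nitrogen source. For the 208 genes with a positive difference the median Or-1 over Rak-2 difference was 1.32 on NH4+ and -0.63 on NO3- (log2). The higher level thus lay with Or-1 on NH4+ and, for the median gene, with Rak-2 on NO3-. In 141 of the 208 genes all 3 Or-1 libraries on NH4+ lay above the other 9 libraries, compared with 7.05% of all genes tested. In 66 of the 208 all 3 Or-1 libraries on NO3- lay below the other 9, compared with 2.90% of all genes. On the Rak-2 side, all 3 libraries on NO3- lay above all 3 on NH4+ in 67 of the 208, compared with 16.3% of all genes. In 30 of the 208 all 3 Rak-2 libraries on NH4+ lay below the other 9, compared with 5.11% of all genes. These counts describe the genes that the test selected and add no evidence to it.

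The number of calls depended on single libraries. Leaving out 1 library at a time gave between 69 and 613 called genes, with the lowest number without Rak-2 NH4+ replicate 1 and the highest without Rak-2 NO3- replicate 3. All 237 genes kept their direction in the 12 fits, 59 were called in each of the 12, and 117 in at least 6. A test against a log2 difference of 1 itself called 6 genes, so for most genes the difference is shown to be other than 0 but not shown to exceed 1. The number of these 12 fits that called a gene is given after its adjusted p.

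**Figure D2:**
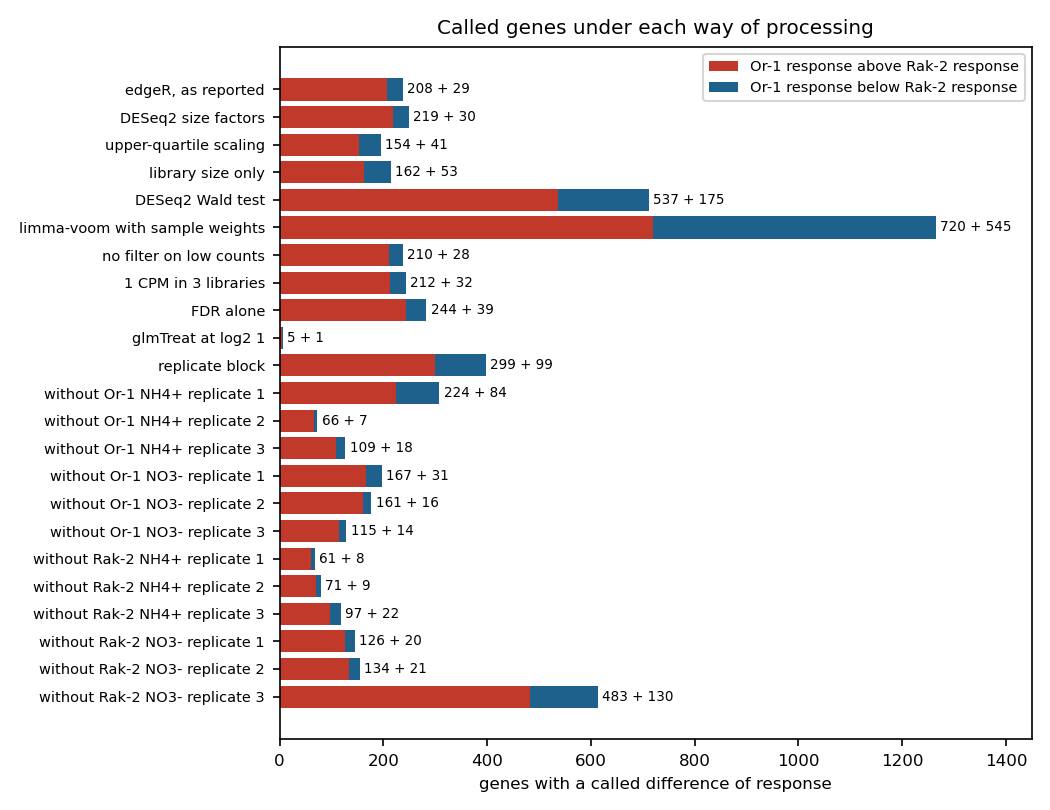
Number of genes with a called difference of response under each way of processing, with the genes called above 0 (left part of each bar) and below 0 (right part) and both counts printed beside the bar. The counts of the 12 fits without 1 library run from 69 to 613, and each of the fits called more genes above 0 than below.

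The calls of each list below can be set against all genes tested, of which 1.08% were called above 0 and 0.150% below. Counts at an unadjusted p under 0.05 can be set against 3483 of the 19327 genes tested. Genes of camalexin and indole cyanogen synthesis had the largest share of calls above 0 among the lists. Of 13 listed genes 12 were tested, 9 were called above 0 and none below, and the median difference was 2.51. These are the enzymes that turn tryptophan into indole-3-acetaldoxime and on to camalexin, with their regulator and transporters. The 9 called genes were CYP79B2, CYP79B3, CYP71A12, CYP71A13, CYP71B15, GSTF6, AT1G26380, ABCG36 and NAC042. GGP1, WRKY33 and ABCG34 were not called, with differences of 0.37, 1.83 and -0.11. Between 5 and 9 genes of the list were called in the 12 fits, with 5 without Rak-2 NH4+ replicate 1 and 5 without Rak-2 NH4+ replicate 2.

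CYP79B2 and CYP79B3 make indole-3-acetaldoxime from tryptophan. CYP79B2 had 559, 514 and 785 CPM in Or-1 on NH4+ and 138, 103 and 79.0 CPM in Or-1 on NO3-, against 199.7, 143 and 159 CPM in Rak-2 on NH4+ and 330.0, 336 and 159 CPM in Rak-2 on NO3-. The 3 Or-1 libraries on NH4+ stood above all others, and the groups of Rak-2 overlapped. The difference was 3.25 ± 0.43 (SE, n = 3 per group, adjusted p = 0.00804), from an Or-1 response of 2.54 and a Rak-2 response of -0.72, and it was called in 12 of the 12 fits. Its paralogue CYP79B3 had 120.4, 105 and 128 CPM in Or-1 on NH4+ and 105, 133 and 113 CPM in Or-1 on NO3-, against 61.6, 61.3 and 66.4 CPM in Rak-2 on NH4+ and 209.6, 164 and 179.6 CPM in Rak-2 on NO3-. Here the Or-1 groups overlapped, while the Rak-2 libraries on NH4+ were the lowest of all and those on NO3- the highest. The difference of 1.55 ± 0.18 (SE, adjusted p = 0.00677, 12 of the 12 fits) lay on the Rak-2 side, with an Or-1 response of 0.01 and a Rak-2 response of -1.55.

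CYP71A13 and CYP71A12 dehydrate indole-3-acetaldoxime on the way to camalexin and indole cyanogens. CYP71A13 had the largest difference among the called genes above 5 CPM on average. It had 15.5, 8.26 and 37.4 CPM in Or-1 on NH4+ and 0.165, 0.319 and 0.132 CPM in Or-1 on NO3-, against 3.26, 1.78 and 1.52 CPM in Rak-2 on NH4+ and 4.05, 7.84 and 3.50 CPM in Rak-2 on NO3-. The Or-1 libraries on NO3- were close to the detection limit, which is 0.165 CPM for 3 counts in the smallest library of that group. The difference was 7.84 ± 0.90 (SE, adjusted p = 0.00677, 12 of the 12 fits), with an Or-1 response of 6.61 and a Rak-2 response of -1.23. Its near-identical neighbour CYP71A12 had 396, 386 and 845 CPM in Or-1 on NH4+ and 78.7, 70.0 and 38.4 CPM in Or-1 on NO3-, against 157, 158 and 196 CPM in Rak-2 on NH4+ and 200.1, 215 and 77.3 CPM in Rak-2 on NO3-. The Or-1 groups did not overlap and the Rak-2 groups did. Its difference was 3.07 ± 0.59 (SE, adjusted p = 0.0343, 3 of the 12 fits), and reads of these copies could have been split between them.

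CYP71B15 catalyses the last steps to camalexin. It had 102, 104 and 159.9 CPM in Or-1 on NH4+ and 40.9, 34.1 and 29.1 CPM in Or-1 on NO3-, against 75.6, 55.4 and 51.9 CPM in Rak-2 on NH4+ and 106, 77.0 and 67.7 CPM in Rak-2 on NO3-. The Or-1 groups were far apart and the Rak-2 groups overlapped, with a difference of 2.27 ± 0.33 (SE, adjusted p = 0.00986, 12 of the 12 fits). AT1G26380, annotated as a FAD-binding Berberine family protein, had 124, 140.3 and 319 CPM in Or-1 on NH4+ and 33.5, 16.9 and 8.52 CPM in Or-1 on NO3-, against 17.4, 19.7 and 22.7 CPM in Rak-2 on NH4+ and 102, 56.9 and 28.9 CPM in Rak-2 on NO3-. In Rak-2 all 3 libraries on NH4+ were below those on NO3-, in the opposite order to Or-1. Its difference was 4.96 ± 0.79 (SE, adjusted p = 0.0144, 10 of the 12 fits).

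NAC042 encodes a NAC transcription factor that controls camalexin genes. It had 109, 111 and 140.0 CPM in Or-1 on NH4+ and 11, 7.02 and 4.19 CPM in Or-1 on NO3-, against 25.6, 29.0 and 24.8 CPM in Rak-2 on NH4+ and 23.6, 21.7 and 9.90 CPM in Rak-2 on NO3-. Both ecotypes had their higher level on NH4+, and the gap was much wider in Or-1. The Or-1 response was 4.03, the Rak-2 response was 0.53, and the difference was 3.50 ± 0.49 (SE, adjusted p = 0.00941, 12 of the 12 fits). ABCG36, a plasma membrane exporter with a role in defence, had a difference of 1.62 ± 0.29 (SE, adjusted p = 0.0233, 7 of the 12 fits).

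**Figure D3:**
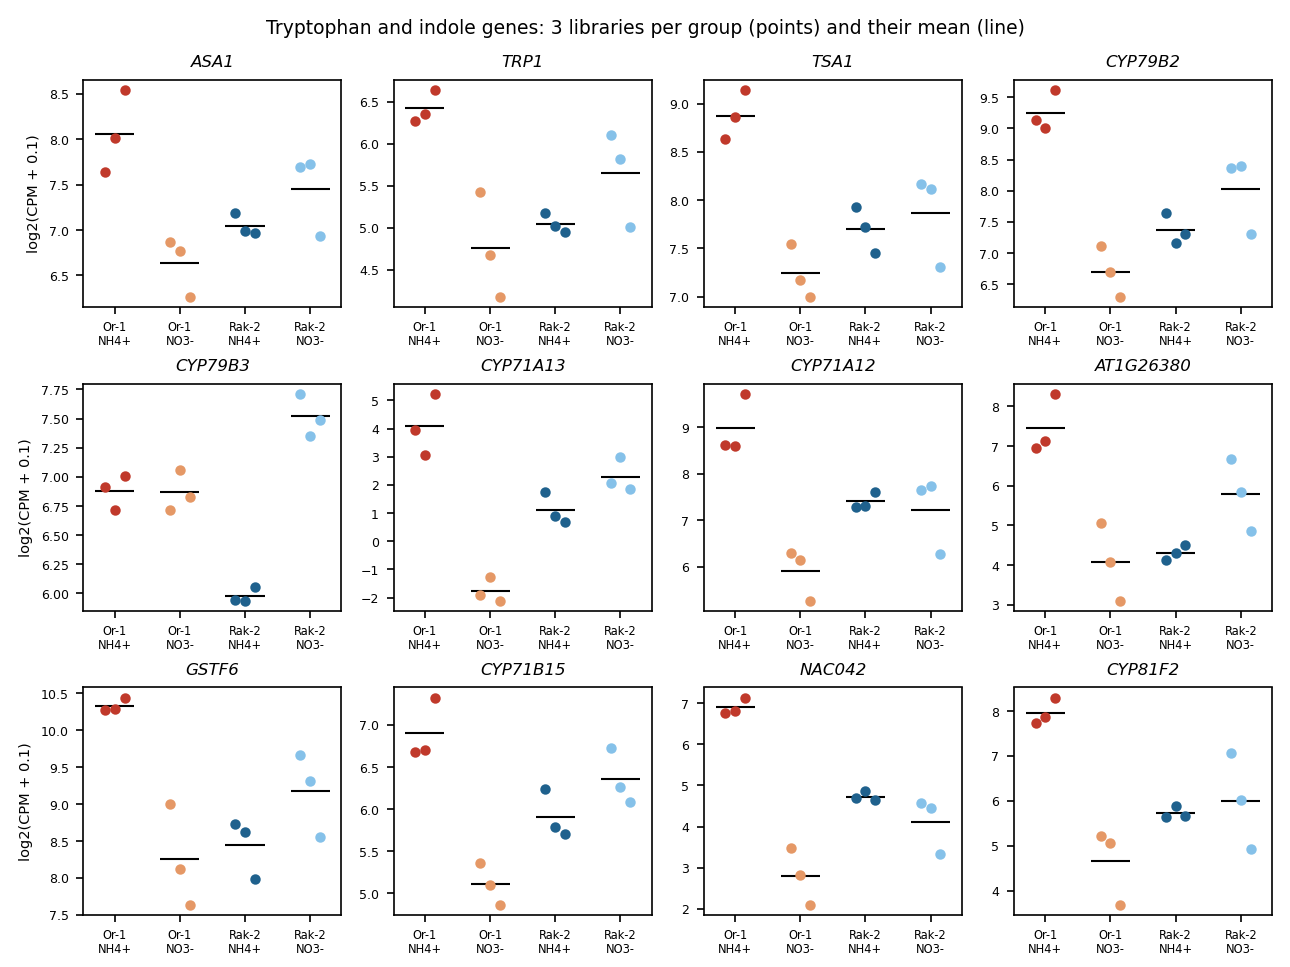
Level of 12 tryptophan and indole genes in each library, as log2(CPM + 0.1), for Or-1 on NH4+, Or-1 on NO3-, Rak-2 on NH4+ and Rak-2 on NO3-, with 3 points per group and a line at their mean. In CYP79B2 the Or-1 libraries on NH4+ stand at 514 CPM and above, and the other 9 at 336 CPM and below, while CYP79B3 shows its gap in Rak-2.

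Promoters of some of these genes are shown because WRKY factors, several of which control camalexin genes in Arabidopsis, bind TTGAC (the W-box core). They are those of CYP71A13, CYP71A12, AT1G26380, NAC042 and CYP71B15. For CYP79B2 only the number of copies is given, and CYP79B3, GSTF6 and ABCG36 are not shown. The sequences are the 250 bases before the annotated gene start in the RefSeq TAIR10.1 reference, which is from the ecotype Columbia, so Or-1 and Rak-2 may differ from it. The build used for the deposited counts is not given in the sources used here. Capitals mark TTGAC or its reverse complement GTCAA, and each line reads 5′ to 3′ on the strand of the gene.
CYP71A13, chr2:13111989-13112238 (minus strand): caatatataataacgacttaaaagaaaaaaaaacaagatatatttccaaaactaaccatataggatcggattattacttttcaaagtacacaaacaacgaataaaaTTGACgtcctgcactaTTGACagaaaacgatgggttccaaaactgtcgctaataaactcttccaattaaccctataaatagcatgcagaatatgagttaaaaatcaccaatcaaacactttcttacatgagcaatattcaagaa
CYP71A12, chr2:13101372-13101621 (minus strand): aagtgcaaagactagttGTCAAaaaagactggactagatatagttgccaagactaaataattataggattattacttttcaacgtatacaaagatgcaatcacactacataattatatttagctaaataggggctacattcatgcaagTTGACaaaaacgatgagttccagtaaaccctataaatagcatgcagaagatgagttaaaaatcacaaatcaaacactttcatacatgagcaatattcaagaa
AT1G26380, chr1:9128569-9128818 (minus strand): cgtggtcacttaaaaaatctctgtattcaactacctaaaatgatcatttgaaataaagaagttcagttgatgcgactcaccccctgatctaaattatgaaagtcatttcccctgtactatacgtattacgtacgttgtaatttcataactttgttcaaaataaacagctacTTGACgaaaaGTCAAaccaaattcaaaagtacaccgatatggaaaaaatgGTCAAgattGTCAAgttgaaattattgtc
NAC042, chr2:17882637-17882886 (minus strand): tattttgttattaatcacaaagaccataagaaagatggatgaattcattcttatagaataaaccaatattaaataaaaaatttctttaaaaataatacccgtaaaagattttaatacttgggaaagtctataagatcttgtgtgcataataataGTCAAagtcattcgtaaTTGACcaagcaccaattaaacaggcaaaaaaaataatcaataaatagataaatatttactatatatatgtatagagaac
CYP71B15, chr3:9887667-9887916 (plus strand): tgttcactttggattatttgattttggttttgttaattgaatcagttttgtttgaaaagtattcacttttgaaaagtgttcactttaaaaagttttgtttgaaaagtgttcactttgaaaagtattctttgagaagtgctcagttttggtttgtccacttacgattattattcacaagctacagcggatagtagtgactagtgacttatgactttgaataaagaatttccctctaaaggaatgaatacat
AT1G26380 held 4 copies of the core, CYP71A13, CYP71A12 and NAC042 held 2 each, and CYP71B15 and CYP79B2 held none in this window.

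The core was present in 138 of the 208 promoters of genes with a positive difference (66.3%), in 13 of the 29 with a negative difference (44.8%) and in 8592 of the 18850 tested genes matched to the reference (45.6%). At least 2 copies were found in 64 of the 208 (30.8%), 1 of the 29 (3.45%) and 14.6% of all. The G-box CACGTG was present in 15 of the 208 (7.21%), none of the 29 and 7.23% of all. The GCC box GCCGCC was present in 8 of the 208 (3.85%), none of the 29 and 2.01% of all. Both strands were searched, and 2 different motifs overlapped in 94 of the 18850 promoters. These shares are a description without a test, and a match is not a bound site.

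Tryptophan synthesis genes, which supply the camalexin path, also had calls above 0 alone. All 10 listed genes were tested, and 6 were called above 0, none below, with a median difference of 1.65. The 6 cover most of the path, with the anthranilate synthase subunits ASA1 and ASB1, the phosphoribosylanthranilate transferase TRP1, AT2G04400 and the tryptophan synthase subunits TSA1 and TSB1. The calls depended on single libraries. No gene of the list was called without Or-1 NH4+ replicate 2 or 3, without Or-1 NO3- replicate 2 or 3, without Rak-2 NH4+ replicate 1, 2 or 3 or without Rak-2 NO3- replicate 2, and 1 was called without Rak-2 NO3- replicate 1, while the median stayed between 1.36 and 1.94. The 3 phosphoribosylanthranilate isomerase genes PAI1, PAI2 and PAI3, with differences of -0.14, 0.41 and -0.09, and TSB2, with 1.44, were not called.

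ASA1, the first committed enzyme of the path, had 199, 258 and 374 CPM in Or-1 on NH4+ and 117, 109 and 77.0 CPM in Or-1 on NO3-, against 146, 127 and 125 CPM in Rak-2 on NH4+ and 207, 212 and 122 CPM in Rak-2 on NO3-. The Or-1 groups did not overlap, while in Rak-2 1 library on NO3- fell below all 3 on NH4+. The difference was 1.90 ± 0.37 (SE, adjusted p = 0.0343, 3 of the 12 fits). TSB1, which makes tryptophan from indole and serine, had 348, 434 and 453 CPM in Or-1 on NH4+ and 474, 374 and 295 CPM in Or-1 on NO3-, against 177, 161 and 159 CPM in Rak-2 on NH4+ and 929, 489.5 and 359 CPM in Rak-2 on NO3-. Its difference of 1.95 ± 0.42 (SE, adjusted p = 0.0497, 2 of the 12 fits) lay on the Rak-2 side, where all libraries on NH4+ were below those on NO3-. TRP1, ASB1, TSA1 and AT2G04400 had differences of 2.25, 2.1, 1.84 and 1.46, each called in 3 of the 12 fits. The calls of TSB1 and AT2G04400 were lost under upper-quartile scaling, which left 4 calls in the list.

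Genes of the shikimate pathway, which supplies chorismate for tryptophan and phenylalanine, were grouped after their values had been seen. Of 9 tested, 3 were called above 0 and none below, and all 9 differences were positive, with a median of 0.68. The called genes were DHS1 and AT1G22410, both annotated as enzymes of its first step, with differences of 1.09 and 1.05, and AT2G45300, with 1.04. None of the 9 was called under upper-quartile scaling, under library size alone, without Or-1 NH4+ replicate 2, without Rak-2 NH4+ replicate 1, 2 or 3 or without Rak-2 NO3- replicate 1.

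Indolic glucosinolate genes had 3 calls above 0 and none below among 10 tested, with a median difference of 1.00. MYB51 and MYB122 encode activators of these genes, and CYP81F2 hydroxylates the indole ring of the product. MYB51 had 160.1, 197 and 194 CPM in Or-1 on NH4+ and 41.2, 88.0 and 27.3 CPM in Or-1 on NO3-, against 39.7, 44.5 and 39.3 CPM in Rak-2 on NH4+ and 93.3, 66.2 and 59.3 CPM in Rak-2 on NO3-. Each Or-1 library on NH4+ exceeded all others, and the order in Rak-2 was the reverse. The differences were 2.64 ± 0.48 for MYB51 (SE, adjusted p = 0.0264, 5 of the 12 fits), 2.95 ± 0.42 for MYB122 (SE, adjusted p = 0.00941, 12 of the 12 fits) and 3.71 ± 0.69 for CYP81F2 (SE, adjusted p = 0.028, 6 of the 12 fits). MYB34, another activator of the same branch, had a difference of -1.10 and was not called. The count of 3 became 1 without Or-1 NH4+ replicate 2 or 3 or without any 1 of the Rak-2 NH4+ libraries, and 5 without Rak-2 NO3- replicate 3. Aliphatic glucosinolate genes, whose products are made from methionine, had no call among 9 tested, with 2 at an unadjusted p under 0.05, 1 call below 0 by DESeq2 and 1 by limma-voom. All 9 had negative differences, with a median of -0.77.

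Glutathione S-transferases attach glutathione to reactive compounds. Of 43 tested, 7 were called above 0 and none below, while the median difference of the family was 0.17. The called genes were GSTF2, GSTF3, GSTF6, GSTF7, GSTU11, GSTU12 and GSTL1. GSTF3 had the smallest p-value of all genes tested. It had 52.4, 54.5 and 50.4 CPM in Or-1 on NH4+ and 6.29, 8.19 and 5.47 CPM in Or-1 on NO3-, against 29.8, 28.5 and 20 CPM in Rak-2 on NH4+ and 34.1, 41.1 and 32.9 CPM in Rak-2 on NO3-. The libraries within each group were close, and the Or-1 groups lay outside the range of both Rak-2 groups, above it on NH4+ and below it on NO3-. The difference was 3.45 ± 0.26 (SE, adjusted p = 0.00064, 12 of the 12 fits). GSTF2 had 2151, 2268 and 2383 CPM in Or-1 on NH4+ and 407, 463 and 359 CPM in Or-1 on NO3-, against 1748, 1552 and 1209 CPM in Rak-2 on NH4+ and 899.8, 1145 and 1045 CPM in Rak-2 on NO3-. Both ecotypes had higher levels on NH4+, and the difference was 1.92 ± 0.24 (SE, adjusted p = 0.00804, 12 of the 12 fits). GSTF7, GSTF6, GSTU12, GSTU11 and GSTL1 had differences of 2.69, 2.74, 3.44, 3.32 and 1.97, called in 12, 4, 5, 5 and 2 of the 12 fits, and the call of GSTL1 was lost under upper-quartile scaling and under library size alone. GSTF2 with GSTF3, GSTF6 with GSTF7 and GSTU11 with GSTU12 are close copies among which reads could have been split. The 12 fits called between 3 and 8 genes of the family, with 3 without Or-1 NH4+ replicate 2, without any 1 of the Rak-2 NH4+ libraries and without Rak-2 NO3- replicate 1 or 2, and 4 without Or-1 NO3- replicate 2. DESeq2 added calls below 0 (9 above and 3 below).

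Phenylpropanoid and monolignol genes, which lead from phenylalanine to lignin precursors, had 3 calls above 0 and none below among 19 tested, with a median difference of 0.79. The calls were PAL1 and PAL2, the entry enzymes, and 4CL1, which activates cinnamic acids. PAL2 had 613, 803 and 947 CPM in Or-1 on NH4+ and 206, 238 and 251 CPM in Or-1 on NO3-, against 177, 177 and 218 CPM in Rak-2 on NH4+ and 390.2, 214 and 201 CPM in Rak-2 on NO3-. Levels on NH4+ were higher in Or-1 than in any other library, and the Rak-2 groups overlapped. The differences were 2.26 ± 0.35 for PAL2 (SE, adjusted p = 0.0127, 10 of the 12 fits), 1.20 ± 0.23 for 4CL1 (SE, adjusted p = 0.0316, 4 of the 12 fits) and 1.04 ± 0.21 for PAL1 (SE, adjusted p = 0.036, 3 of the 12 fits). The call of PAL1 was lost under upper-quartile scaling and under library size alone, and that of 4CL1 under library size alone. No gene of the list was called without Rak-2 NH4+ replicate 1 or 2, and 1 was called without Or-1 NH4+ replicate 2 or 3, Or-1 NO3- replicate 1, Rak-2 NH4+ replicate 3 or Rak-2 NO3- replicate 2.

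LAC1, a laccase of the kind that couples monolignols, and DIR5, a dirigent protein, were outside that list. LAC1 had 29.8, 43.7 and 42.8 CPM in Or-1 on NH4+ and 3.92, 3.56 and 3.35 CPM in Or-1 on NO3-, against 3.81, 3.66 and 4.41 CPM in Rak-2 on NH4+ and 5.65, 3.29 and 3.23 CPM in Rak-2 on NO3-. The other 9 libraries all lay near the same low level. Its difference was 3.44 ± 0.33 (SE, adjusted p = 0.00267, 12 of the 12 fits), with an Or-1 response of 3.42 and a Rak-2 response of -0.02. DIR5 had 81.2, 185 and 200 CPM in Or-1 on NH4+ and 8.82, 14.3 and 10.9 CPM in Or-1 on NO3-, against 23.1, 30.0 and 21.5 CPM in Rak-2 on NH4+ and 45.6, 38.9 and 79.2 CPM in Rak-2 on NO3-. The groups of each ecotype did not overlap, with NH4+ higher in Or-1 and lower in Rak-2. The difference was 4.91 ± 0.52 (SE, adjusted p = 0.00502, 12 of the 12 fits).

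Several of the largest positive differences fell outside the lists. PLA2A, a patatin-like phospholipase, had 119, 221 and 511 CPM in Or-1 on NH4+ and 25.5, 9.83 and 13.4 CPM in Or-1 on NO3-, against 23.4, 20.3 and 38.8 CPM in Rak-2 on NH4+ and 45.8, 25.2 and 21.2 CPM in Rak-2 on NO3-. Its libraries on NH4+ spread widely in Or-1 but did not overlap the rest, and the difference was 4.28 ± 0.77 (SE, adjusted p = 0.0244, 7 of the 12 fits). PPDK, pyruvate orthophosphate dikinase, had 16.7, 17.2 and 6.37 CPM in Or-1 on NH4+ and 1.38, 1.01 and 0.574 CPM in Or-1 on NO3-, against 4.22, 2.72 and 6.71 CPM in Rak-2 on NH4+ and 10.7, 11.7 and 6.51 CPM in Rak-2 on NO3-. Its difference was 4.86 ± 0.67 (SE, adjusted p = 0.00915, 12 of the 12 fits), and 1 Or-1 library on NH4+ fell within the range of Rak-2. DTX1, an efflux carrier of the MATE family, had 20.2, 22.5 and 18.2 CPM in Or-1 on NH4+ and 5.51, 2.29 and 0.397 CPM in Or-1 on NO3-, against 1.86, 1.62 and 1.86 CPM in Rak-2 on NH4+ and 10.4, 4.88 and 4.87 CPM in Rak-2 on NO3-. The order of the nitrogen sources was opposite in the ecotypes, without overlap, and the difference was 4.81 ± 0.89 (SE, adjusted p = 0.0288, 5 of the 12 fits).

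The cytochrome P450 CYP71B22 also changed in opposite directions. It had 36.1, 26.9 and 12.7 CPM in Or-1 on NH4+ and 9.54, 6.54 and 2.78 CPM in Or-1 on NO3-, against 4.92, 3.19 and 4.51 CPM in Rak-2 on NH4+ and 14.2, 26.5 and 14.1 CPM in Rak-2 on NO3-. It rose by 2.01 in Or-1 (adjusted p = 0.0136) and fell by 2.12 in Rak-2 (adjusted p = 0.0167), and the difference was 4.13 ± 0.67 (SE, adjusted p = 0.0159, 9 of the 12 fits). CYP706A2 had a difference of 2.71 ± 0.45 (SE, adjusted p = 0.0178, 9 of the 12 fits). Other genes among the largest are known by their annotation alone. AT2G39400, an alpha/beta-hydrolase, had 35, 41.0 and 44.9 CPM in Or-1 on NH4+ and 15.4, 15.6 and 7.33 CPM in Or-1 on NO3-, against 3.11, 2.83 and 4.46 CPM in Rak-2 on NH4+ and 50.2, 24.2 and 9.41 CPM in Rak-2 on NO3-. Its Rak-2 libraries on NH4+ were the lowest of all 12. The difference was 4.66 ± 0.71 (SE, adjusted p = 0.0118, 11 of the 12 fits), against 5.27 ± 1.02 for AT3G16530, a legume lectin family protein (SE, adjusted p = 0.0343, 4 of the 12 fits), and 4.07 ± 0.73 for AT4G22030, annotated as an F-box protein (SE, adjusted p = 0.0244, 4 of the 12 fits). AT1G11990 was called above 0 but all its Or-1 libraries held at most 3 counts, so no difference is given for it.

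CSLE1 and Rap2.6L had some of the smallest p-values with moderate differences. CSLE1, a cellulose synthase-like gene, had 172, 188 and 162 CPM in Or-1 on NH4+ and 59.7, 63.1 and 58.3 CPM in Or-1 on NO3-, against 78.8, 81.0 and 75.2 CPM in Rak-2 on NH4+ and 79.2, 68.8 and 78.9 CPM in Rak-2 on NO3-. Its difference was 1.48 ± 0.14 (SE, adjusted p = 0.00248, 12 of the 12 fits), and the Rak-2 groups overlapped. Rap2.6L, an ethylene response factor, had 45.3, 43.4 and 45.0 CPM in Or-1 on NH4+ and 6.51, 5.53 and 6.04 CPM in Or-1 on NO3-, against 22.0, 28.5 and 23.8 CPM in Rak-2 on NH4+ and 9.91, 13.8 and 14.1 CPM in Rak-2 on NO3-. The groups did not overlap in either ecotype and moved in the same direction, and the difference was 1.91 ± 0.21 (SE, adjusted p = 0.00659, 12 of the 12 fits).

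Families taken from the annotation's product text or symbols after the values had been seen gave further calls. The search went by words, so a family can hold genes that only share a word or a symbol with it. Of all genes tested, 1.08% were called above 0 and 0.150% below. Above 0 were 10 of 153 genes found as cytochrome P450, 7 of 97 as UDP-glycosyltransferases and 6 of 44 as MATE efflux carriers. So were 6 of 121 found as methyltransferases, 5 of 75 as NAC factors and 5 of 101 by the words calmodulin or EF-hand. The same held for 3 of 25 found as cysteine-rich receptor kinases and 2 of 26 as xyloglucan endotransglucosylases. None of these families had a call below 0. Leaving out 1 library gave 6 to 11 calls among the P450 genes and 2 to 8 among the MATE carriers, lowest in both without Or-1 NH4+ replicate 2 or Rak-2 NH4+ replicate 1 or 2. The medians of these families ranged from 0.01 in the methyltransferases to 0.81 in the cysteine-rich receptor kinases. The medians of the P450 genes, the glycosyltransferases, the methyltransferases and the xyloglucan endotransglucosylases turned negative under upper-quartile scaling, while those of the others did not. That scaling moved the median of all genes from -0.01 to -0.12. Arabinogalactan proteins had calls in the other direction, with 2 of 43 below 0 (AGP22 and AGP14), none above and a median of -0.19. The 5 called genes found by calmodulin or EF-hand were CML41, TCH3 (a touch-induced calmodulin-like gene), CML42, AT2G41410 and AT5G28830. Their differences were 3, 2.61, 1.67, 1.255 and 1.21.

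WRKY transcription factors had 3 calls above 0 and none below among 63 tested (4.8%, against 1.23% of all genes). The median difference was 0.36. WRKY55 had 26.9, 29.4 and 46.7 CPM in Or-1 on NH4+ and 2.54, 1.54 and 0.971 CPM in Or-1 on NO3-, against 4.37, 5.54 and 5.54 CPM in Rak-2 on NH4+ and 2.37, 1.93 and 1.31 CPM in Rak-2 on NO3-. It rose in both ecotypes and by more in Or-1, with a difference of 2.89 ± 0.48 (SE, adjusted p = 0.0182, 10 of the 12 fits). WRKY45 and WRKY15 had differences of 2.67 and 1.5, called in 4 and 3 of the 12 fits, and the call of WRKY15 was lost under upper-quartile scaling. WRKY33, the regulator best known for camalexin genes, had 483, 593 and 549.7 CPM in Or-1 on NH4+ and 157, 339 and 118 CPM in Or-1 on NO3-, against 126, 156 and 136 CPM in Rak-2 on NH4+ and 303, 148 and 110.0 CPM in Rak-2 on NO3-. All Or-1 libraries on NH4+ lay above the rest, and the difference of 1.83 had an adjusted p of 0.133. No WRKY gene was called without Rak-2 NH4+ replicate 1 or 2, 1 was called without Or-1 NH4+ replicate 2 or 3, Or-1 NO3- replicate 1 or 3 or Rak-2 NH4+ replicate 3, and 6 without Rak-2 NO3- replicate 3. The 6 ZAT zinc finger genes had no call, 2 at an unadjusted p under 0.05 and 1 call above 0 each by DESeq2 and limma-voom, with a median of 0.98.

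Class III peroxidases had 1 call above 0 and 1 below among 53 tested (3.8%, against 1.23% of all genes), with a median of 0.63. PER4 had 51.8, 43.0 and 54.0 CPM in Or-1 on NH4+ and 74.6, 28.8 and 18.2 CPM in Or-1 on NO3-, against 5.72, 5.39 and 4.61 CPM in Rak-2 on NH4+ and 111, 74.7 and 19.7 CPM in Rak-2 on NO3-. The Or-1 groups overlapped, and all Rak-2 libraries on NH4+ lay under every other library. The difference was 4.00 ± 0.83 (SE, adjusted p = 0.0431, 2 of the 12 fits). AT5G15180 had 34.3, 26.1 and 14.2 CPM in Or-1 on NH4+ and 37.9, 38.9 and 41.2 CPM in Or-1 on NO3-, against 81.1, 79.4 and 57.1 CPM in Rak-2 on NH4+ and 24.0, 35.4 and 19.6 CPM in Rak-2 on NO3-. It was highest in Rak-2 on NH4+, and its difference was -2.12 ± 0.41 (SE, adjusted p = 0.0343, 4 of the 12 fits). The family count rested on single libraries, with no call without Or-1 NH4+ replicate 2, Or-1 NO3- replicate 2 or 3, Rak-2 NH4+ replicate 1, 2 or 3 or Rak-2 NO3- replicate 1, and 9 without Rak-2 NO3- replicate 3. DESeq2 called 10 above and 1 below.

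Nitrate uptake, reduction and signalling genes had 2 calls above 0 and none below among 27 tested, with a median difference of 0.26. Both were nitrate reductases. NIA1 had 666, 762 and 502 CPM in Or-1 on NH4+ and 1043, 2469 and 2497 CPM in Or-1 on NO3-, against 154, 147 and 198 CPM in Rak-2 on NH4+ and 2393, 3224 and 2010 CPM in Rak-2 on NO3-. It fell on NH4+ in both ecotypes, with an Or-1 response of -1.64 (adjusted p = 0.00529) and a Rak-2 response of -3.93 (adjusted p = 9.91e-05). The smaller fall in Or-1 gave a difference of 2.29 ± 0.45 (SE, adjusted p = 0.0343, 6 of the 12 fits). NIA2 had 968, 1681 and 1915 CPM in Or-1 on NH4+ and 1101, 1475 and 1134 CPM in Or-1 on NO3-, against 208, 263 and 298 CPM in Rak-2 on NH4+ and 2807, 1075 and 907 CPM in Rak-2 on NO3-. In Or-1 its groups overlapped and in Rak-2 all libraries on NH4+ were lower, with a difference of 2.94 ± 0.57 (SE, adjusted p = 0.0343, 4 of the 12 fits). Other NO3--responsive genes fell in both ecotypes with no call on the difference. NRT2.1, a high-affinity NO3- transporter, had an Or-1 response of -2.82 and a Rak-2 response of -3.03 (difference 0.21, SE 0.40), and NIR1, nitrite reductase, had an Or-1 response of -2.88 and a Rak-2 response of -3.52 (difference 0.64, SE 0.49). Neither nitrate reductase was called without Or-1 NH4+ replicate 2 or without any 1 of the Rak-2 NH4+ libraries.

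Ammonium uptake and assimilation genes had a median difference of 0.04 and 1 call among 18 tested, above 0 (5.6%, against 1.23% of all genes). This was GDH2, a glutamate dehydrogenase subunit, with 457, 512 and 382 CPM in Or-1 on NH4+ and 143, 153 and 121 CPM in Or-1 on NO3-, against 265, 198 and 226 CPM in Rak-2 on NH4+ and 174, 194 and 146 CPM in Rak-2 on NO3-. The groups did not overlap in either ecotype, and the difference was 1.27 ± 0.23 (SE, adjusted p = 0.0257, 7 of the 12 fits). The median of this list turned to -0.08 under upper-quartile scaling, which moved the median of all genes from -0.01 to -0.12. Among 16 tested trehalose-6-phosphate synthase and phosphatase genes only TPPD was called (6.2%, against 1.23% of all genes). Its difference was 1.23 ± 0.26 (SE, adjusted p = 0.0438, 1 of the 12 fits). Its Or-1 response was 2.32 and its Rak-2 response 1.09, and the call was lost under upper-quartile scaling and in all fits without 1 library except that without Rak-2 NO3- replicate 3.

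Aquaporins, the water channels of the plasma membrane (PIP) and the tonoplast (TIP), had the largest share of calls below 0 among the lists. Of 19 tested, 6 were called below 0 and none above, 17 had negative differences, and the median was -1.11. The calls were TIP2;1, TIP2;3, TIP1;1, PIP1;3, PIP1;5 and PIP2;7. In summed level, the aquaporins had between 3428 and 3852 CPM in Or-1 on NH4+ and between 9848 and 12310 CPM in Or-1 on NO3-, against 6727 to 8761 CPM in Rak-2 on NH4+ and 11130 to 14860 CPM in Rak-2 on NO3-. The groups did not overlap in either ecotype, and the gap was wider in Or-1. Between 2 and 7 were called in the 12 fits, with 2 without Or-1 NH4+ replicate 2 or 3 or Rak-2 NH4+ replicate 1 or 2, and 3 without Or-1 NO3- replicate 2 or 3, Rak-2 NH4+ replicate 3 or Rak-2 NO3- replicate 1 or 2.

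TIP2;3 had 17.4, 13.9 and 19.0 CPM in Or-1 on NH4+ and 186, 206 and 235 CPM in Or-1 on NO3-, against 149.8, 244 and 135 CPM in Rak-2 on NH4+ and 282, 444 and 322 CPM in Rak-2 on NO3-. Levels on NH4+ were lower in both ecotypes, and far lower in Or-1. The difference was -2.65 ± 0.34 (SE, adjusted p = 0.00804, 12 of the 12 fits), from an Or-1 response of -3.64 and a Rak-2 response of -0.99. TIP2;1 had 47.7, 20.5 and 32.5 CPM in Or-1 on NH4+ and 132, 147 and 202 CPM in Or-1 on NO3-, against 106, 101 and 245 CPM in Rak-2 on NH4+ and 56.3, 79.3 and 136 CPM in Rak-2 on NO3-. Within each ecotype, the groups overlapped in Rak-2 but not in Or-1, and the difference was -2.99 ± 0.60 (SE, adjusted p = 0.0377, 2 of the 12 fits). PIP1;5 had 45.9, 47.1 and 45.5 CPM in Or-1 on NH4+ and 112, 118 and 114 CPM in Or-1 on NO3-, against 78.9, 73.0 and 63.5 CPM in Rak-2 on NH4+ and 59.2, 82.5 and 81.4 CPM in Rak-2 on NO3-. Both Rak-2 groups lay between the Or-1 groups, and the difference was -1.26 ± 0.18 (SE, adjusted p = 0.0101, 12 of the 12 fits). PIP2;7, TIP1;1 and PIP1;3 had differences of -1.26, -1.19 and -1.13, called in 6, 4 and 3 of the 12 fits, and the call of TIP1;1 was lost with no filter on low counts.

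ALD1 had the largest negative difference among the called genes with a mean of at least 5 CPM. The enzyme makes a precursor of pipecolic acid, which FMO1 turns into the defence signal N-hydroxypipecolic acid. ALD1 had 81.9, 78.4 and 144 CPM in Or-1 on NH4+ and 3.92, 2.71 and 6.44 CPM in Or-1 on NO3-, against 396, 494 and 623 CPM in Rak-2 on NH4+ and 0.279, 0.892 and 1.48 CPM in Rak-2 on NO3-. It rose on NH4+ in both ecotypes, with an Or-1 response of 4.53 (adjusted p = 5.92e-05) and a Rak-2 response of 9.10 (adjusted p = 8.6e-06), and Rak-2 had the higher level on NH4+ and the lower on NO3-. The difference was -4.57 ± 0.61 (SE, adjusted p = 0.00804, 12 of the 12 fits). FMO1 rose as well, with an Or-1 response of 3.18 and a Rak-2 response of 3.75, and its difference of -0.57 (SE 0.36, adjusted p = 0.449) was not called. AT5G52810, annotated as an NAD(P)-binding Rossmann-fold protein and listed with this pathway, had 99.1, 113 and 98.9 CPM in Or-1 on NH4+ and 26.4, 29.9 and 29.8 CPM in Or-1 on NO3-, against 4.67, 3.92 and 4.07 CPM in Rak-2 on NH4+ and 2.65, 3.33 and 3.61 CPM in Rak-2 on NO3-. Rak-2 had low levels in every library, and the difference was 1.46 ± 0.19 (SE, adjusted p = 0.00804, 12 of the 12 fits). These were the only calls among 17 tested genes of salicylic and N-hydroxypipecolic acid, whose median difference was 0.46.

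**Figure D4:**
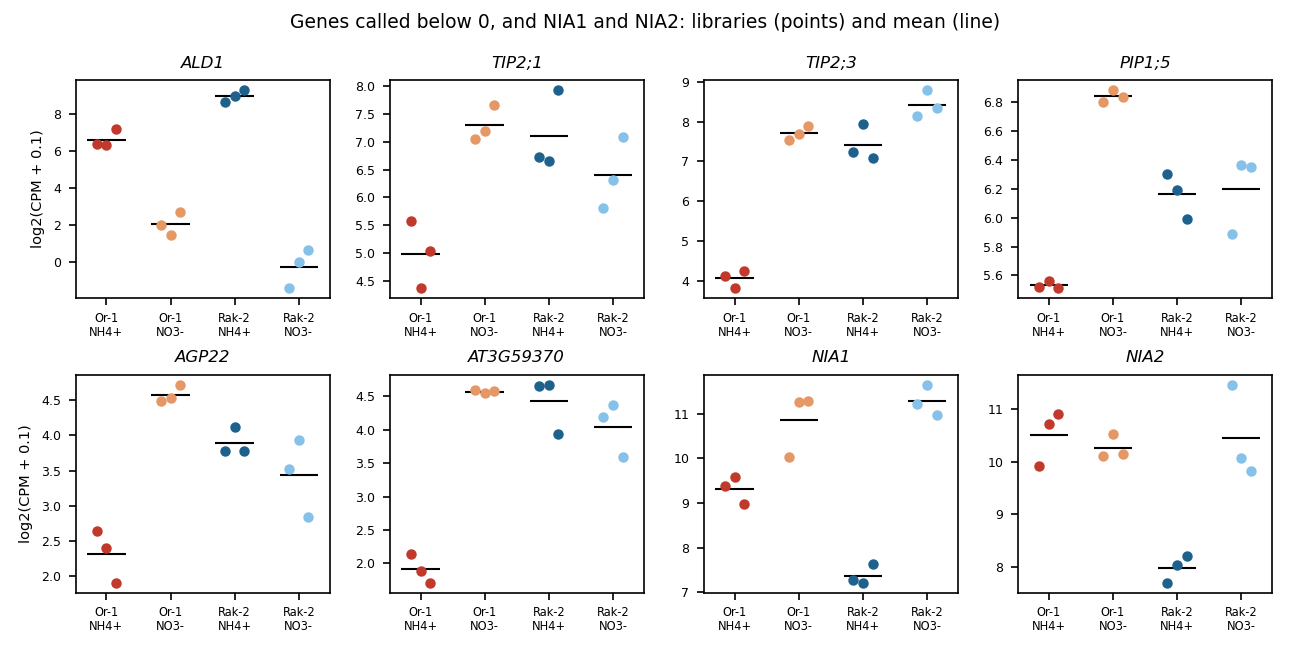
Level in each library, as log2(CPM + 0.1), of 6 genes called below 0 (ALD1, TIP2;1, TIP2;3, PIP1;5, AGP22 and AT3G59370) and of the nitrate reductases NIA1 and NIA2, for Or-1 on NH4+, Or-1 on NO3-, Rak-2 on NH4+ and Rak-2 on NO3-, with 3 points per group and a line at their mean. TIP2;1, TIP2;3, PIP1;5, AGP22 and AT3G59370 are lowest in Or-1 on NH4+, ALD1 is highest in Rak-2 on NH4+, and both nitrate reductases are lowest in Rak-2 on NH4+.

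AT3G59370, AGP22, AT4G12520 and AT5G62360 were lower in Or-1 on NH4+ than in all other libraries. AT3G59370, a vacuolar calcium-binding protein-related gene, had 4.33, 3.59 and 3.16 CPM in Or-1 on NH4+ and 24.1, 23.3 and 23.7 CPM in Or-1 on NO3-, against 25.2, 25.5 and 15.3 CPM in Rak-2 on NH4+ and 18.1, 20.6 and 11.9 CPM in Rak-2 on NO3-. The other 9 libraries were within a common range, and the difference was -3.06 ± 0.34 (SE, adjusted p = 0.00654, 12 of the 12 fits). AGP22, an arabinogalactan protein of the cell wall, had 6.13, 5.18 and 3.65 CPM in Or-1 on NH4+ and 22.3, 22.9 and 26.2 CPM in Or-1 on NO3-, against 13.6, 17.3 and 13.6 CPM in Rak-2 on NH4+ and 11.4, 15.1 and 7.05 CPM in Rak-2 on NO3-. Its difference was -2.65 ± 0.37 (SE, adjusted p = 0.00941, 12 of the 12 fits). AT4G12520, annotated as a bifunctional inhibitor and lipid-transfer protein, had 0.486, 0.102 and 0.0972 CPM in Or-1 on NH4+ and 9.98, 14.6 and 13.8 CPM in Or-1 on NO3-, against 2.81, 2.98 and 3.04 CPM in Rak-2 on NH4+ and 14, 10.4 and 2.73 CPM in Rak-2 on NO3-. Of the Or-1 libraries on NH4+, 2 lay under the 0.154 CPM that 3 counts make in the smallest library of the group, and the difference was -4.14 ± 0.84 (SE, adjusted p = 0.0381, 3 of the 12 fits). AT5G62360, annotated as a plant invertase and pectin methylesterase inhibitor, had a difference of -2.44 ± 0.48 (SE, adjusted p = 0.0343, 5 of the 12 fits).

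AT1G60740, PP2-A9 and MLP329 were high in Or-1 on NO3- alone. AT1G60740, a thioredoxin superfamily gene, had 7.78, 9.48 and 4.28 CPM in Or-1 on NH4+ and 42.5, 41.4 and 27.4 CPM in Or-1 on NO3-, against 10.4, 11 and 6.07 CPM in Rak-2 on NH4+ and 6.07, 4.98 and 3.88 CPM in Rak-2 on NO3-. The difference was -3.25 ± 0.46 (SE, adjusted p = 0.00941, 12 of the 12 fits). PP2-A9, a phloem protein gene, had 2.14, 2.05 and 1.12 CPM in Or-1 on NH4+ and 9.54, 18.6 and 23.0 CPM in Or-1 on NO3-, against 1.71, 1.15 and 2.35 CPM in Rak-2 on NH4+ and 1.53, 2.82 and 2.19 CPM in Rak-2 on NO3-. MLP329, of the major latex protein family, had 33.9, 21.3 and 20.9 CPM in Or-1 on NH4+ and 138, 179.5 and 191 CPM in Or-1 on NO3-, against 15.4, 16.4 and 14.3 CPM in Rak-2 on NH4+ and 17.0, 18.5 and 34.8 CPM in Rak-2 on NO3-. In Rak-2 the groups of these 3 genes lay within or next to each other at low levels. PP2-A9 and MLP329 had differences of -2.93 ± 0.57 (SE, adjusted p = 0.0343, 3 of the 12 fits) and -2.13 ± 0.39 (SE, adjusted p = 0.026, 4 of the 12 fits).

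Hypoxia genes, which plants switch on when oxygen is low, had positive differences in all 13 tested genes, with a median of 1.55, but none was called. Of the 13, 9 had an unadjusted p under 0.05, and DESeq2 called 4 and limma-voom 3, all above 0. The median Or-1 response was -0.62 and the median Rak-2 response -2.23. ADH1, alcohol dehydrogenase, had 559, 1700 and 1402 CPM in Or-1 on NH4+ and 3293, 2113 and 1705 CPM in Or-1 on NO3-, against 289, 580.5 and 296 CPM in Rak-2 on NH4+ and 9102, 1975 and 1522 CPM in Rak-2 on NO3-. Levels in the first Rak-2 library on NO3- were several times those in the other 2, and the Or-1 groups nearly met. Over the 12 fits without 1 library, the median of the list lay between 0.94 and 1.84.

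The remaining lists had few calls or none. Over all 19327 genes tested, 3483 had an unadjusted p under 0.05, so a few such genes in a list are common. Iron deficiency genes had positive differences in 19 of 24, a median of 0.67 and no call, with 8 at an unadjusted p under 0.05, 3 calls above 0 by DESeq2 and 7 above and 1 below by limma-voom. Cytokinin genes had negative differences in 22 of 30, a median of -0.38 and no call, with 5 at an unadjusted p under 0.05, 2 calls below 0 by DESeq2 and 4 by limma-voom. Jasmonate genes (19 tested, median 0.06), low pH and aluminium genes (7, median 0.39), Casparian strip genes (8, median -0.57) and suberin genes (12, median 0.41) also had no call, with 4, 3, 1 and 2 at an unadjusted p under 0.05. DESeq2 called 1 of these, in the low pH list, and limma-voom 1 jasmonate gene and 2 of the low pH list, all above 0. The jasmonate median turned to -0.06 under upper-quartile scaling, where the median of all genes was -0.12.

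**Figure D5:**
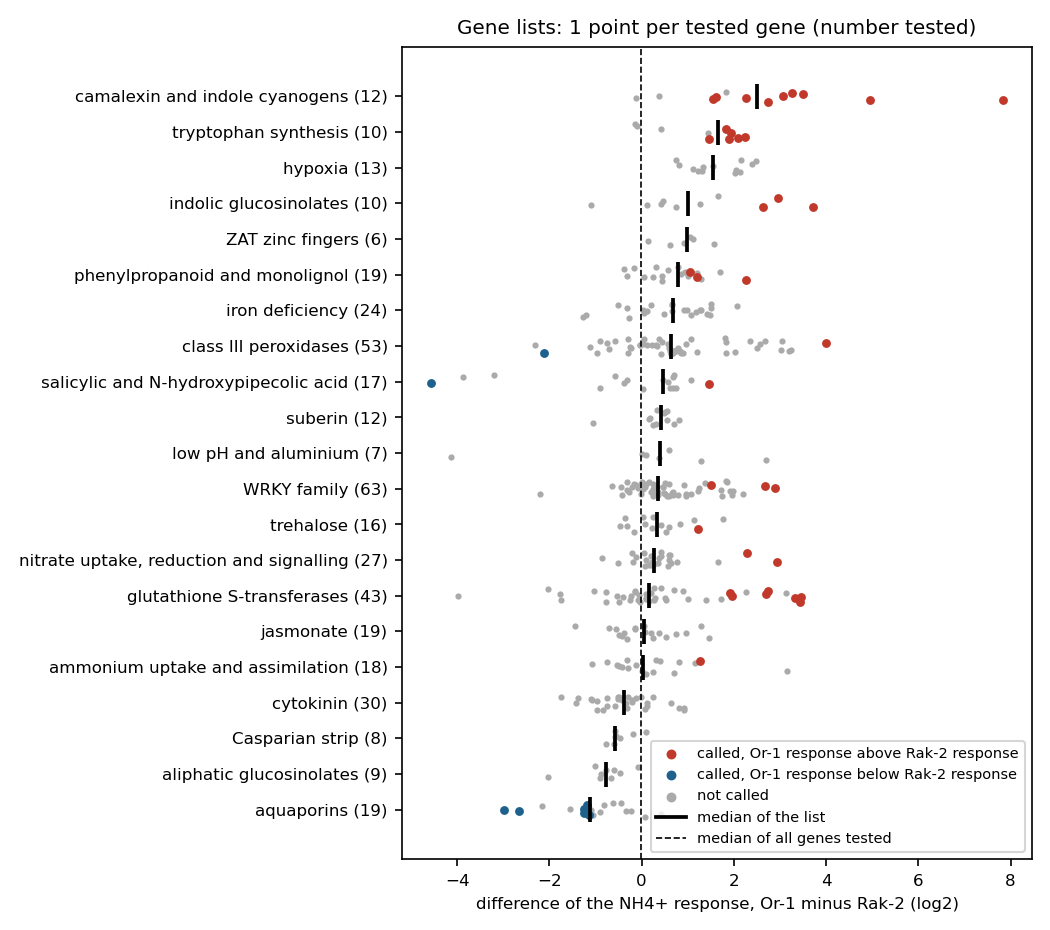
Difference of the NH4+ response, Or-1 minus Rak-2 (horizontal axis, log2), of each tested gene in 21 lists, with 1 point per gene, a bar at the median of each list and a dashed line at the median of all genes. The camalexin list has its median at 2.51 and the aquaporins at -1.11, while the median of all genes is -0.01.

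The 55 tested genes named in the study's text had a median difference of 0.09. Of them 8 were called above 0 and 2 below, against 1.08% and 0.150% of all genes tested. The called genes were NIA1, NAC042, CYP71B15, TPPD, GDH2, CYP71B22, CYP706A2 and WRKY55 above 0 and ALD1 and TIP1;1 below. Since the study picked the named genes from these very libraries, their directions are no independent evidence. The study describes WRKY55, WRKY41, bZIP8, ZAT8, GDH1 and GDH2 as more strongly induced in Or-1. WRKY41, bZIP8, ZAT8 and GDH1 were not called, with differences of -0.12, -0.07, 1.53 and 0.81.

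Genes that mark other organs, cell types and the time of day are given beside these results, and their part in the differences above was not tested. Their counts at an unadjusted p under 0.05 stand beside 3483 of all 19327 genes tested. All 8 tested shoot markers had negative differences, with a median of -1.83 and no call (1 at an unadjusted p under 0.05, none by DESeq2, 5 below 0 by limma-voom). Their summed level was 49.0 to 398.6 CPM in Or-1 on NH4+ and 230.5 to 858.5 CPM in Or-1 on NO3-, against 296.8 to 1149 CPM in Rak-2 on NH4+ and 69.8 to 571.3 CPM in Rak-2 on NO3-. Each pair of groups overlapped, and the range within a group was wide. All 8 tested markers of dividing cells had negative differences, with a median of -0.78 and no call (4 at an unadjusted p under 0.05, none by DESeq2, 2 below 0 by limma-voom), and they summed to 113.8 to 224.5 CPM in Or-1 on NH4+ and 170.6 to 208.8 CPM in Or-1 on NO3-, against 221.1 to 259.1 CPM in Rak-2 on NH4+ and 116.8 to 186.2 CPM in Rak-2 on NO3-. Genes with the words ribosomal protein in their annotation, a set chosen after its values had been seen, had 2 calls below 0 among 299 tested. Of all genes tested, 0.150% were called below 0. The median of the set was -0.54, with positive differences in 22. The number of ribosomal genes called ranged from 0 to 11 over the fits without 1 library, with 11 without Or-1 NH4+ replicate 1 and 7 without Rak-2 NO3- replicate 3. Root hair markers had no call among 8 (1 at an unadjusted p under 0.05, none by DESeq2, 1 above 0 by limma-voom), and they summed to 62.1 to 145.9 CPM in Or-1 on NH4+ and 103.7 to 234.5 CPM in Or-1 on NO3-, against 18.4 to 56.4 CPM in Rak-2 on NH4+ and 14.2 to 144.5 CPM in Rak-2 on NO3-. The lowest of these values was in Rak-2 NO3- replicate 3, whose removal gave 613 calls. Rak-2 NH4+ replicate 1, whose removal gave 69 calls, had 18.4 CPM. Whether marker levels bear on the number of calls was not tested. Morning clock genes had a median of 0.75 over 7 and evening clock genes -0.02 over 6, endodermis markers -0.53 over 6 and other root markers -0.04 over 5, with no call in any of the 4 lists (2, 1, 1 and 1 at an unadjusted p under 0.05, none by DESeq2, and by limma-voom 1 call below 0, among the other root markers).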

How the data were processed

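Roots of Or-1 and Rak-2 on NH4+ or NO3- were profiled by RNA-seq in 12 libraries (NEBNext Ultra kit, HiSeq 2500, per the study's methods). The authors deposited whole-number counts per gene for all libraries, with gene lengths, which were not used in a test. The aligner, the counter, the strand setting and the genome build are not given in the sources used here. Tables of the authors' own comparisons, which hold FPKM, fold changes and p-values of selected genes, were not used.

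Counts were scaled by TMM and tested in edgeR 4.0.16 (R 4.3.3) with the quasi-likelihood F test, 1 mean per group, after filterByExpr (minimum count 10, minimum total 15). The contrast was the NH4+ over NO3- response of Or-1 minus that of Rak-2. Calls needed a Benjamini-Hochberg adjusted p under 0.05 over all 19327 genes and an absolute log2 difference over 1. A standard error is the difference divided by the square root of F. The study's methods call the 3 libraries of a group biological replicates. The fit was tested on simulated counts for the difference of response, where 165 of 200 changed genes among 19170 were recovered with 7 false calls. The changed genes were well expressed and were changed in Or-1 on NH4+ alone, by more than the call threshold. Changes in low genes, unequal spread between groups and factors shared by libraries were not simulated, so these rates need not hold in the data.

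The genes named by rule are the 10 largest called differences in each direction with a mean of at least 5 CPM. They also include the called genes of the lists, those the study names and the 5 smallest p-values outside the first group. Others were named outside this rule, among them called members of families and of the shikimate pathway, FMO1 and ADH1. No count of the 12 fits is given for them. Members and lists were chosen with earlier results of these data known. Alternatives were other scalings, filters and call rules, DESeq2 1.42.0, limma 3.58.1 (voom with sample weights), a replicate block and leaving out each library. All 237 called genes matched the TAIR10.1 reference tables by locus, and of 694 listed identifiers without a locus none was called.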

Additional observations from a re-analysis of the deposited data

Results flagged for a closer look

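The difference between the ecotypes passed the test of the difference itself for 237 genes, and the 10 largest in each direction among those with a mean of at least 5 CPM are given here. Above 0, the differences on the log2 scale were 7.84 for CYP71A13, 5.27 for AT3G16530, 4.96 for AT1G26380, 4.91 for DIR5, 4.86 for PPDK, 4.81 for DTX1, 4.66 for AT2G39400, 4.28 for PLA2A, 4.13 for CYP71B22 and 4.07 for AT4G22030. Below 0, they were -4.57 for ALD1, -4.14 for AT4G12520, -3.25 for AT1G60740, -3.06 for AT3G59370, -2.99 for TIP2;1, -2.93 for PP2-A9, -2.65 for AGP22, -2.65 for TIP2;3, -2.44 for AT5G62360 and -2.13 for MLP329.

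Of the 9 genes that rose in Or-1 and fell in Rak-2, AT2G39400 and CYP71B22 are given above. The differences of the others were 7.42 for AT2G36770, 5.30 for AT3G24510, 3.55 for YLS9, 3.05 for AT4G07820, 2.65 for AT2G16890, 2.23 for AT1G55450 and 2.12 for AT5G42830. AT2G36770 and AT3G24510 are low genes whose means in Or-1 on NO3- and in Rak-2 on NH4+ lie under the level of 3 counts, so their differences are uncertain in size. Groups of 3 libraries are too small for the test of single outlying samples, which was not applied.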

How the results depend on the processing

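The number of called genes was 237 (208 above 0 and 29 below). It was 249 with DESeq2 size factors, 238 with no filter on low counts, 244 with at least 1 CPM in 3 libraries and 283 by the adjusted p alone. DESeq2's Wald test called 712 (537 above and 175 below), limma-voom with sample weights 1265 (720 and 545), and the test against a log2 difference of 1 called 6 (5 and 1). Upper-quartile scaling called 195 (154 and 41) and library size alone 215 (162 and 53). These scalings moved the median difference of all genes to -0.12 and -0.14, from -0.01 under TMM. The share of calls above 0 was 87.8% under TMM, 75.3% under library size alone, 75.4% by DESeq2 and 56.9% by limma-voom. Leaving out 1 library gave 69 to 613 calls, with 61 to 483 above 0 and 7 to 130 below. The causes of these changes were not tested. Of the 63 called genes named by rule, none changed direction under any alternative. DESeq2 and limma-voom kept all 63 calls, upper-quartile scaling 57, library size alone 60 and the test against 1 kept 5.

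The replicate numbers were not taken as pairs, since the labels name nothing that same-numbered libraries share and 5 of their 18 pairwise correlations were 0.1 or less (range -0.04 to 0.54). The data hold a hint of a shared factor, as 10 of 12 libraries correlated best with their own number. With the replicate block, 398 genes were called (299 above and 99 below), 235 of them also called without it. Among the lists with no call, the block gave 1 call below 0 in the aliphatic glucosinolates, 1 above 0 in iron deficiency and 2 above 0 in low pH and aluminium, and none in the jasmonate, cytokinin, hypoxia, Casparian strip, suberin and ZAT lists or in the marker and clock lists.

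The 3 libraries per group and the wide spread of Rak-2 on NO3- limit these calls. Levels of low genes near 3 counts are uncertain.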
